A study of Mus musculus with 16 samples.

Results

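The naive dorsal root ganglia of mice with a crushed sciatic nerve were compared between 72 h and 24 h after the crush. The comparison used 8 of the 16 libraries of the series, chosen by their labels: 4 naive libraries at 24 h and 4 at 72 h. Each library held total RNA of dissociated lumbar ganglia (L4 to L6), taken after a Percoll step, a density medium used in cell preparation. One sciatic nerve per mouse had been crushed, and 4 mice were used per time, each giving injured and naive ganglia, so both naive groups came from animals that carried a crush elsewhere. The naive libraries of the 2 times came from different mice, and the labels give no strain, sex, age, side or processing batch. Time after the crush, the animals used and any handling that differed between the times therefore cannot be told apart. The edgeR p-values set a group difference against the spread between libraries within groups, estimated over all 16 libraries. The 8 injured libraries, 4 per time, entered the same fit and serve below as a second measurement of the same time difference.

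A dorsal root ganglion holds the cell bodies of sensory neurons, each wrapped by satellite glia, together with Schwann cells around the axons, resident macrophages, connective tissue and a dense bed of capillaries. Endothelial cells line these vessels, and mural cells (pericytes and smooth muscle) surround them. Dissociation exposes cells to warmth and enzymes, and immediate-early and heat-shock genes are known to respond to such handling. Blood cells can remain in the ganglion after dissection, so red cell and neutrophil transcripts are a usual trace component of ganglion RNA.

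Total counts in genes ranged from 41241516 to 56484541 at 24 h and from 38358039 to 54980782 at 72 h, so the depths of the groups overlapped. The number of genes with at least 1 count did not overlap: it was 21608, 21849, 21096 and 21832 at 24 h (replicates 1 to 4, the order used for all values here) and 23331, 23166, 23623 and 23610 at 72 h. Sensory neuron genes were level in all 8 libraries, with Avil at 1612 to 1845 CPM (library-scaled counts, on edgeR's TMM totals), Isl1 at 92.6 to 111.9 CPM and the peripheral neuron filament Prph at 1571 to 1919 CPM. Atf3, the axotomy marker, stood at 112, 95, 115 and 89.8 CPM at 24 h and 115, 101, 107 and 117 CPM at 72 h, against 418 to 700 CPM in the injured libraries. Gal, another axotomy marker, was at 4.82 to 6.43 CPM in the naive libraries and at 10.8 to 120.1 CPM in the injured ones. The naive labels and the neuronal tissue label thus went with the marker levels. Within groups, libraries correlated at Pearson's r of 0.972 to 0.975 at 24 h and 0.983 to 0.987 at 72 h over 19151 genes, and the median SD per gene was 0.187 and 0.144 on the log2 CPM scale. On the first principal component of the naive libraries, which took 25.7% of the variance, replicates 3 and 4 of 72 h stood at 41.8 and 42.3, replicates 1 and 2 of 72 h at 9.5 and 11, and the 24 h libraries between -57 and 3.59.

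By edgeR's quasi-likelihood test, 448 of 19151 genes differed between the naive groups at an adjusted p under 0.05, which is 2.34% of the genes tested: 308 (1.61%) were higher at 72 h and 140 (0.731%) were lower. The rises were larger than the falls. The median log2 fold change was 0.54 among genes called higher and -0.33 among genes called lower, and 50 rises but 3 falls reached 1 on the log2 scale. Of the called genes, 281 of the 308 and 127 of the 140 had no overlap between the 4 and 4 libraries; among all genes tested, 2012 (10.5%) had none, 1085 (5.67%) of them higher at 72 h and 927 (4.84%) lower. The largest rises and falls named below were chosen only among called genes without overlap, so its absence there follows from the choice. The median of all genes tested was 0.0003. Calls were more frequent at higher expression. With the genes cut by mean log2 CPM into 4 nearly equal groups, 1.98% were called higher and 1.84% lower in the highest group. In the lowest group these shares were 0.522% and 0.0418%. The share of all genes, set beside gene lists below, is thus not matched for expression.

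**Figure D1:**
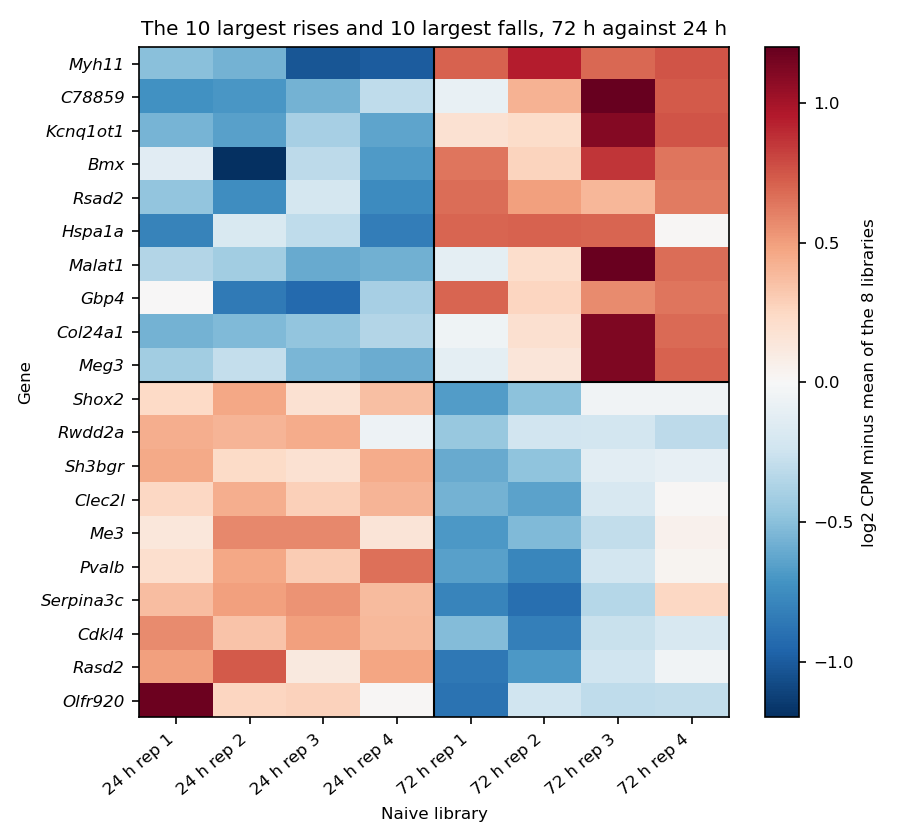
Each row is 1 of the 10 largest rises or 10 largest falls among well-expressed named genes whose naive groups did not overlap, and each column 1 naive library. Color gives log2 CPM minus the mean of the 8 libraries, drawn at ±1.2 where it is larger: Myh11 is even across the 72 h libraries, while Malat1, Meg3, Kcnq1ot1, C78859 and Col24a1 peak in 72 h replicate 3.

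The mean levels of the endothelial and the mural cell lists were higher in each 72 h library than in any 24 h library. Of 61 vessel and connective tissue genes tested, 12 rose and 1 fell (21.3% called, against 2.34% of all genes), and the median over the list was 0.36 on the log2 scale. These and the other gene lists below were chosen with earlier results of these data known. Their shares therefore describe the lists and do not test them. The largest rise under the naming rule was Myh11, the myosin heavy chain of smooth muscle (ENSMUSG00000018830, chromosome 16, 14194535 to 14291372; all coordinates are GRCm38, and the spans are whole genes). It was at 12.6, 12.1, 8.79 and 8.99 CPM at 24 h and 29.3, 34.4, 28.9 and 30.2 CPM at 72 h. The groups lay far apart and each was tight (10.6 ± 2.01 to 30.7 ± 2.55 CPM, SD, n = 4 each; log2 fold change 1.53, SE 0.17, adjusted p = 3.76e-05 by edgeR), and it passed in all 8 fits that left out 1 naive library. In bulk RNA, more cells of a type and more RNA per cell cannot be told apart.

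Other contractile genes of the vessel wall rose with Myh11. Smooth muscle actin Acta2 (ENSMUSG00000035783, chromosome 19, 34241090 to 34255590) was at 6.98, 10.2, 9.18 and 8.85 CPM at 24 h and 14.8, 15.9, 15.4 and 19.7 CPM at 72 h. Acta2 rose by 0.91 on the log2 scale (SE 0.15, adjusted p = 0.0022). The regulatory light chain Myl9 (ENSMUSG00000067818, chromosome 2, 156775420 to 156781658) was at 8.69, 10.8, 8.24 and 8.97 CPM at 24 h and 15.6, 15.4, 16.2 and 15.7 CPM at 72 h (log2 fold change 0.77, SE 0.13, adjusted p = 0.00274), and its 72 h libraries lay within 1 CPM of each other. The lowest 72 h library was above the highest 24 h library for both genes. Myosin light chain kinase Mylk (0.74, SE 0.14) and the actin-binding Tagln (0.76, SE 0.19) also rose; both are named here because they were called, after their values were seen. Acta2, Myl9 and Mylk passed in all 8 such fits, while Tagln passed only without 24 h replicates 1 or 2 (adjusted p = 0.0563 to 0.095 in the other fits). Of 19 mural markers tested, 5 rose and 1 fell (31.6% called, against 2.34% of all genes), with a median of 0.48. The one that fell was Mcam (-0.34, SE 0.07), a cell adhesion molecule that is also known outside the vessel wall; it did not pass without 72 h replicate 2 (adjusted p = 0.0517).

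Among 23 endothelial markers, 7 rose and none fell by edgeR (30.4% called, against 2.34% of all genes). A positive log2 fold change was found in 22 of them, and the median was 0.56. Abcb1a, the efflux pump of barrier endothelium (ENSMUSG00000040584, chromosome 5, 8660077 to 8748575), was at 44.3, 41.3, 50.6 and 39.6 CPM at 24 h and 85.7, 75.2, 68 and 63.4 CPM at 72 h. Abcb1a rose by 0.73 on the log2 scale (SE 0.10, adjusted p = 0.000561). The organic anion transporter Slco1a4 (ENSMUSG00000030237, chromosome 6, 141805440 to 141856199) was at 30.3, 17.4, 26.1 and 23.6 CPM at 24 h and 54.9, 48.2, 41.8 and 41.5 CPM at 72 h. Slco1a4 rose by 0.94 on the log2 scale (SE 0.15, adjusted p = 0.00164). The transcription factor Sox17 (ENSMUSG00000025902, chromosome 1, 4490931 to 4497354) was at 4.27, 5.76, 5.25 and 5.22 CPM at 24 h and 11, 9.45, 7.81 and 8.58 CPM at 72 h. Sox17 rose by 0.85 on the log2 scale (SE 0.14, adjusted p = 0.00181). None of the 3 genes overlapped between times, and all 3 were highest in 72 h replicate 1, the library with the highest endothelial level. Outside the naming rule, the other rises were the junction proteins Cdh5 (0.82, SE 0.14) and Cldn5 (0.90, SE 0.20), the receptor Tie1 (0.77, SE 0.13) and the VEGF receptor Flt1 (0.56, SE 0.11). Cdh5, Tie1, Flt1, Abcb1a, Slco1a4 and Sox17 passed in all 8 fits that left out a library, while Cldn5 did not pass without 24 h replicate 2 or 72 h replicate 1 (adjusted p = 0.0526 and 0.0722). Bmx, a cytoplasmic kinase known in endothelium and in no list here, was at 3.78, 1.73, 3.35 and 2.6 CPM at 24 h and 6.52, 5.01, 7.55 and 6.52 CPM at 72 h. It was named among the largest rises, for which a lack of overlap was required. Bmx rose by 1.16 on the log2 scale (SE 0.21, adjusted p = 0.00522). It did not pass with both 72 h replicates 3 and 4 left out (adjusted p = 0.0554).

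The mean log2 CPM of the endothelial markers was 4.19, 3.67, 3.87 and 3.68 at 24 h and 4.62, 4.33, 4.25 and 4.29 at 72 h, and that of the mural markers was 2.2, 2.19, 2.06 and 1.84 at 24 h and 2.43, 2.45, 2.62 and 2.88 at 72 h. Both levels were without overlap between the times, although 24 h replicate 1, at 4.19 for endothelium, came within 0.1 of the lowest 72 h library. The 2 lists differed in which 72 h library led: replicate 1 for endothelium and replicate 4 for mural cells. Of 19 fibroblast and connective tissue genes, 0 were called, and their level overlapped between times (3.21, 3.56, 2.44 and 2.75 at 24 h and 3.09, 2.72, 3.6 and 3.39 at 72 h). The fibronectin gene Fn1 was at 12.4, 17.1, 6.86 and 9.25 CPM at 24 h and 13.2, 11.9, 28.1 and 25.9 CPM at 72 h (adjusted p = 0.197). Tendon factor Scx was at 13.8, 15.2, 10.2 and 11.7 CPM at 24 h and 10.5, 7.38, 9.23 and 9.31 CPM at 72 h (adjusted p = 0.11). The number of vessel genes called was 20 without 24 h replicate 1 and 11 to 13 without any other single naive library.

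**Figure D2:**
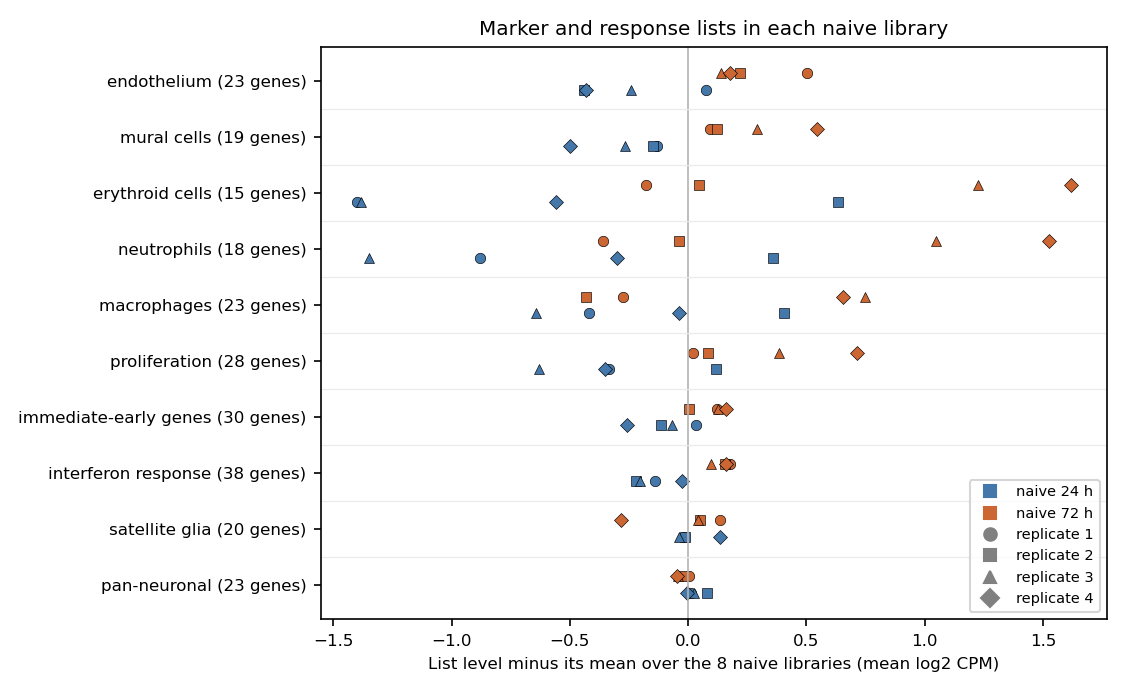
Each point is 1 naive library, by color for time and by shape for replicate, and its place on the x axis is the mean log2 CPM of a list's tested members minus the mean of the 8 libraries. Endothelial and mural levels separate the times, erythroid, neutrophil and macrophage levels overlap between the times, and the pan-neuronal level is nearly the same in all libraries.

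Erythroid and neutrophil transcripts were higher in most 72 h libraries, but their levels overlapped between the times. Of 102 blood and proliferation genes tested, 3 rose and 0 fell by edgeR (2.94% called, near the 2.34% of all genes), although the median log2 fold change was 0.61. The 3 were the neutrophil gene Ltf and the proliferation genes Mki67 and Cenpf. The erythroid level (15 genes) was 0.05, 2.08, 0.07 and 0.89 at 24 h and 1.27, 1.5, 2.68 and 3.07 at 72 h. The neutrophil level (18 genes) was 0.83, 2.07, 0.36 and 1.41 at 24 h and 1.35, 1.67, 2.76 and 3.23 at 72 h. In both lists 24 h replicate 2 lay above 72 h replicates 1 and 2, and 72 h replicates 3 and 4 were the highest. The medians of the lists were 1.33 and 1.2 on the log2 scale.

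In Slc4a1, Ltf, Ngp and Rhag, 24 h replicate 2 lay above at least 1 of the 72 h libraries. The red cell anion exchanger Slc4a1 (ENSMUSG00000006574, chromosome 11, 102348824 to 102366203) had 50, 544, 71 and 129 counts at 24 h and 203, 395, 641 and 1407 at 72 h, which is 1.06, 9.61, 1.71 and 3.04 CPM at 24 h and 4.73, 8.43, 16.3 and 25.1 CPM at 72 h (adjusted p = 0.091 by edgeR). The neutrophil granule protein Ltf (ENSMUSG00000032496, chromosome 9, 111019271 to 111042767) was at 9.35, 28.9, 11.3 and 17.3 CPM at 24 h and 23.2, 29.5, 57.4 and 83.3 CPM at 72 h. Ltf rose by 1.53 on the log2 scale (SE 0.39, adjusted p = 0.0389). Ltf passed only without 24 h replicate 2 or 72 h replicates 1 or 2 (adjusted p = 0.0801 to 0.124 in the other fits). Ltf was the only neutrophil gene called, and its lowest 72 h value lay below its highest 24 h value. The granule gene Ngp was at 7.42, 35, 13.7 and 26 CPM at 24 h and 24.6, 28.9, 61.8 and 99.5 CPM at 72 h (adjusted p = 0.0757). The red cell membrane gene Rhag had 7, 8, 0 and 5 counts at 24 h and 19, 4, 37 and 61 at 72 h, a ratio of summed rates of 6.13 (exact Poisson 95% interval 3.80 to 10.4, counting error only). Rhag was not called by edgeR, which takes the spread between libraries into account. Globin genes were a small part of the libraries and took 0.00380% to 0.0119% of counts at 24 h and 0.00555% to 0.0170% at 72 h.

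The count of blood and proliferation genes called changed with the library left out. The number of blood and proliferation genes called was 15 without 24 h replicate 2, the library with the highest erythroid and neutrophil levels at 24 h, 3 without 72 h replicate 1 or 2, and 0 without any 1 of 24 h replicates 1, 3 and 4 or 72 h replicates 3 and 4. Without 24 h replicate 2 the erythroid median was 2.30, and with both 72 h replicates 3 and 4 left out it was 0.37. Macrophage genes were highest in the same libraries, 24 h replicate 2 and 72 h replicates 3 and 4 (levels 0.14, 0.97, -0.08 and 0.52 at 24 h and 0.29, 0.13, 1.31 and 1.22 at 72 h), with 0 of 23 called and a median of 0.23. The monocyte gene Ly6c2 was at 0.825, 3.09, 0.554 and 1.68 CPM at 24 h and 3.68, 2.5, 5.54 and 9.24 CPM at 72 h, and the lysozyme gene Lyz2 at 15.2, 35.2, 11.6 and 20.5 CPM at 24 h and 22.9, 23.8, 52 and 74.4 CPM at 72 h (adjusted p = 0.0707 and 0.0985). Platelet genes (7 tested) and lymphocyte genes (12 tested) had 0 called. The platelet level was -0.58, -0.41, -0.55 and -0.54 at 24 h and -0.03, -0.31, -0.19 and 0.35 at 72 h, without overlap. The median log2 fold change of the platelet genes was -0.10, and 3 of 7 were positive. Ighm was at 15.6, 33.2, 21.7 and 28.1 CPM at 24 h and 29.3, 31.7, 28.6 and 40.7 CPM at 72 h. The platelet chemokine Ppbp had 6, 0, 4 and 0 counts at 24 h and 25, 26, 4 and 49 at 72 h, a ratio of summed rates of 10.5 (interval 5.51 to 22.6), with an adjusted p = 0.143 by edgeR.

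Of 28 proliferation genes, 2 rose (7.14% called, against 2.34% of all genes). Mki67, a marker of cycling cells (ENSMUSG00000031004, chromosome 7, 135689784 to 135716361), was at 4.99, 13.8, 2.36 and 5.62 CPM at 24 h and 10.4, 15, 23 and 31.1 CPM at 72 h. Mki67 rose by 1.56 on the log2 scale (SE 0.37, adjusted p = 0.0252). Mki67 passed only without 24 h replicate 2 or 72 h replicates 1 or 2 (adjusted p = 0.0645 to 0.0758 in the other fits). The centromere protein Cenpf was at 0.634, 1.41, 0.169 and 0.496 CPM at 24 h and 1.4, 1.86, 2.62 and 2.51 CPM at 72 h. Cenpf rose by 1.6 on the log2 scale (SE 0.41, adjusted p = 0.0417). Cenpf passed only without 24 h replicate 2 (adjusted p = 0.0518 to 0.113 in the other fits). Topoisomerase Top2a was at 2.18, 5.86, 2.5 and 3.7 CPM at 24 h and 4.29, 5.42, 8.95 and 12.9 CPM at 72 h (adjusted p = 0.0509). All 3 genes were highest at 24 h in replicate 2, and lowest at 72 h in replicate 1. These are the libraries that were also highest and lowest for erythroid genes within their groups, and the part of blood RNA in the proliferation result was not tested.

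Stress genes changed in both directions. Of 146 genes in 6 stress lists, 11 rose and 3 fell (9.59% called, against 2.34% of all genes), and their median was 0.03. The largest rise was that of Hspa1a, an inducible heat-shock chaperone of the HSP70 family, which rose with its neighbour Hspa1b. The 2 genes are near-identical, so counts of one may include reads of the other and both values are uncertain. Their promoters, taken as the 250 bases before the RefSeq gene start, share 247 of 250 bases (98.8%). They are printed with the interferon-induced gene Rsad2, described below, because these genes are classic targets of heat-shock factor and of interferon signaling. Capitals mark a match to the core heat-shock element GAANNTTC in the Hspa1 genes and to the interferon response element core TTTCNNTTTC in Rsad2, searched on both strands:
Hspa1a (GRCm38.p6, chr17:34972157-34972406, minus strand): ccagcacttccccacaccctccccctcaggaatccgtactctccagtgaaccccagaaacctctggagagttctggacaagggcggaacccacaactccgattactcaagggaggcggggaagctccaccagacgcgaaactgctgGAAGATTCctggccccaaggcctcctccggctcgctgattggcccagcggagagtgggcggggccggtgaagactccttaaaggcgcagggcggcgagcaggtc
Hspa1b (GRCm38.p6, chr17:34959239-34959488, minus strand): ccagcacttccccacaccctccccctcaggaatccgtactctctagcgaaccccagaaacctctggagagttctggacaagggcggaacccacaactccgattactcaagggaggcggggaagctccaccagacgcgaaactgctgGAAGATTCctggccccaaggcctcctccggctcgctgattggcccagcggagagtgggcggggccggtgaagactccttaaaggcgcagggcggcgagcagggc
Rsad2 (GRCm38.p6, chr12:26456453-26456702, minus strand): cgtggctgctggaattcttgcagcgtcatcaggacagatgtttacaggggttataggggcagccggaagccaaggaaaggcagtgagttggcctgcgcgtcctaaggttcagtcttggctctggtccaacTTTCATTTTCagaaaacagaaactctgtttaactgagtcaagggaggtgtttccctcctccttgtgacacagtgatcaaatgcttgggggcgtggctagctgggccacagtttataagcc
The match begins 104 bases before the start of both Hspa1 genes and 120 bases before that of Rsad2. Of 32851 RefSeq promoters of the same window, 2199 (6.69%) hold the heat-shock letters and 978 (2.98%) the interferon letters, and a match is a description of the letters only.

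Hspa1a (ENSMUSG00000091971, chromosome 17, 34969190 to 34972156) was at 12.6, 19.5, 17.8 and 12.4 CPM at 24 h and 35.8, 36.2, 35.9 and 22.4 CPM at 72 h. The groups did not overlap, but 72 h replicate 4 stood below the other three 72 h libraries (log2 fold change 1.06, SE 0.17, adjusted p = 0.00203), and it passed in all 8 fits that left out a library. Hspa1b (ENSMUSG00000090877, chromosome 17, 34956436 to 34959238) was at 13.3, 23.4, 16.2 and 9.51 CPM at 24 h and 31.1, 31.7, 28.8 and 17.1 CPM at 72 h (log2 fold change 0.79, SE 0.21, adjusted p = 0.0432), and its groups overlapped, since 24 h replicate 2 lay above 72 h replicate 4. Hspa1b passed only without 24 h replicate 2 or 72 h replicate 4 (adjusted p = 0.0814 to 0.132 in the other fits). No other chaperone of the list was called higher. The mitochondrial chaperonin partner Hspe1 fell (-0.28, SE 0.06). It ranged between 65 and 72.9 CPM at 24 h and between 54.1 and 60.8 CPM at 72 h, and it passed only without 24 h replicates 1 or 3 or 72 h replicate 4 (adjusted p = 0.0506 to 0.075 in the other fits). The list of 27 chaperones had a median of -0.05.

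Among 30 immediate-early genes, which are switched on within minutes of a stimulus, 3 rose and 0 fell (10% called, against 2.34% of all genes). A positive log2 fold change was found in 26 of them, and the median was 0.17, against 0.0003 over all genes. The AP-1 subunit Fosl2 (ENSMUSG00000029135, chromosome 5, 32135801 to 32157842) was at 26.8, 24.1, 19.7 and 22.8 CPM at 24 h and 33.6, 29.7, 32.2 and 34.9 CPM at 72 h. Fosl2 rose by 0.48 on the log2 scale (SE 0.09, adjusted p = 0.00538). It passed in all 8 fits that left out a library, but not with both 72 h replicates 3 and 4 left out (adjusted p = 0.0523). Ier3, which limits cell death, rose (0.31, SE 0.08) and ranged between 30.6 and 35.7 CPM at 24 h and between 37.9 and 45.3 CPM at 72 h. Ier3 passed only without 24 h replicates 2 or 4 or 72 h replicate 3 (adjusted p = 0.064 to 0.112 in the other fits). Ier5 rose as well (0.55, SE 0.15), and it passed only without 24 h replicate 1 or 72 h replicate 2 (adjusted p = 0.06 to 0.138 in the other fits). All 3 genes were without overlap between the times.

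In the integrated stress and unfolded protein response, 3 of 31 genes rose and 1 fell (12.9% called, against 2.34% of all genes). Ppp1r15a (GADD34), which restores translation after stress (ENSMUSG00000040435, chromosome 7, 45522916 to 45526268), was at 53, 53.3, 53.1 and 48.3 CPM at 24 h and 74.1, 64, 70.1 and 65.2 CPM at 72 h. Ppp1r15a rose by 0.40 on the log2 scale (SE 0.07, adjusted p = 0.00565). It passed in all 8 fits that left out a library. Edem1, of the endoplasmic reticulum degradation pathway, rose (0.33, SE 0.08), but it passed only without 24 h replicate 4 (adjusted p = 0.0595 to 0.121 in the other fits). The amino acid transporter Slc7a5 rose (0.28, SE 0.07), and it passed only without 24 h replicate 1 (adjusted p = 0.069 to 0.116 in the other fits). The mitochondrial folate enzyme Mthfd2 was at 36.3, 28.2, 31 and 33.5 CPM at 24 h and 25.2, 22.7, 25.4 and 26.8 CPM at 72 h. Mthfd2 fell by 0.37 on the log2 scale (SE 0.08, adjusted p = 0.0183). Mthfd2 passed only without 24 h replicates 2 or 3 or 72 h replicate 4 (adjusted p = 0.0507 to 0.0772 in the other fits). The directions within this list were mixed, and its median was -0.06.

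Glucocorticoid targets, which respond to the stress hormone corticosterone in mice, had 3 rises and 0 falls among 26 genes tested (median 0.15). That is 11.5% called, against 2.34% of all genes. The NF-kappaB inhibitor Nfkbia (ENSMUSG00000021025, chromosome 12, 55489410 to 55492647) was at 48.8, 39.8, 37.8 and 41.1 CPM at 24 h and 63.6, 56.7, 60.3 and 61.3 CPM at 72 h. Nfkbia rose by 0.53 on the log2 scale (SE 0.08, adjusted p = 0.00146). The phagocytic receptor Mertk (ENSMUSG00000014361, chromosome 2, 128698956 to 128802894) was at 15.2, 14.6, 13.6 and 15.6 CPM at 24 h and 25.1, 23.6, 19 and 20.8 CPM at 72 h. Mertk rose by 0.58 on the log2 scale (SE 0.10, adjusted p = 0.00191). The caveolar protein Cavin2 (ENSMUSG00000045954, chromosome 1, 51289126 to 51302960), which endothelium also expresses, was at 22.3, 14.3, 18.6 and 13.9 CPM at 24 h and 31.5, 30.2, 29.3 and 29.4 CPM at 72 h. Cavin2 rose by 0.80 on the log2 scale (SE 0.17, adjusted p = 0.0143). All 3 were without overlap and passed in all 8 fits that left out a library. Of 18 oxidative stress genes 0 were called, and of 17 hypoxia genes only Bnip3, a mitochondrial protein, was, with a fall (-0.23, SE 0.05); it passed only without 24 h replicate 2 or 72 h replicate 4 (adjusted p = 0.0539 to 0.0962 in the other fits).

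Of the interferon-induced genes, Rsad2 and Gbp4 were called higher. Rsad2 (viperin), an antiviral enzyme (ENSMUSG00000020641, chromosome 12, 26442746 to 26456452), was at 14.7, 12.1, 17.6 and 12 CPM at 24 h and 32.3, 28.6, 26.7 and 31.3 CPM at 72 h, without overlap. Rsad2 rose by 1.08 on the log2 scale (SE 0.16, adjusted p = 0.001). Gbp4, an interferon-induced GTPase named by its size of change, was at 4.65, 2.58, 2.43 and 3.52 CPM at 24 h and 7.55, 5.55, 6.89 and 7.23 CPM at 72 h. Gbp4 rose by 1.05 on the log2 scale (SE 0.20, adjusted p = 0.00547). Both passed in all 8 fits that left out a library. Of 38 interferon response genes 1 was called, Rsad2 itself (2.63%, near the 2.34% of all genes). A positive log2 fold change was found in 33 of them, and the median was 0.24, against 0.0003 over all genes. Ifit2 was at 70.1, 62.2, 66.1 and 67.4 CPM at 24 h and 77.1, 91.6, 73.2 and 76.2 CPM at 72 h and Trim30a at 4.42, 4.999, 2.12 and 4.65 CPM at 24 h and 7.39, 5.27, 5.95 and 8.23 CPM at 72 h (adjusted p = 0.0543 and 0.0577). The list level was 2.86, 2.78, 2.8 and 2.98 at 24 h and 3.18, 3.16, 3.1 and 3.16 at 72 h, again without overlap. In the clock list, 1 of 24 genes rose (4.17% called, against 2.34% of all genes). It was Nr1d1, a repressor of the circadian clock (ENSMUSG00000020889, chromosome 11, 98767932 to 98775333), at 3.53, 4.15, 4.09 and 4.77 CPM at 24 h and 7.97, 7.02, 7.43 and 6.2 CPM at 72 h. Nr1d1 rose by 0.79 on the log2 scale (SE 0.18, adjusted p = 0.0242). Nr1d1 passed only without 24 h replicates 2 or 4 or 72 h replicate 4 (adjusted p = 0.0548 to 0.075 in the other fits). Per1 was at 13.6, 12, 9.27 and 12 CPM at 24 h and 15.2, 12.1, 17.4 and 15.4 CPM at 72 h (adjusted p = 0.173).

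Neuronal genes changed in both directions. Of 150 neuronal genes tested, 7 rose and 4 fell (7.33% called, against 2.34% of all genes), with a median of 0.05. The share of all genes is not matched for expression. In the highest of 4 expression groups, 1.98% of genes were called higher and 1.84% lower. The pan-neuronal level was 9.01, 9.07, 9.02 and 8.99 at 24 h and 8.998, 8.97, 8.95 and 8.95 at 72 h. In that list 1 of 23 genes was called: Vsnl1, a neuronal calcium sensor, fell (-0.37, SE 0.08). It was at 65, 73.2, 69.3 and 67.7 CPM at 24 h and 45.2, 54.8, 57.8 and 55.8 CPM at 72 h. Vsnl1 did not pass without 72 h replicate 1 (adjusted p = 0.0548). The synaptic protein Snap25 was at 2547, 2794, 2649 and 2533 CPM at 24 h and 2097, 2234, 2399.8 and 2523 CPM at 72 h and the neurofilament Nefl at 6568, 7892, 5714 and 5591 CPM at 24 h and 5706, 5355, 5061 and 5562 CPM at 72 h (adjusted p = 0.0666 and 0.12). The ranges of Snap25 nearly touched, and those of Nefl overlapped.

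Genes of sensory neuron subtypes moved in both directions. Ntrk3, the neurotrophin-3 receptor of large mechanosensory and proprioceptive neurons (ENSMUSG00000059146, chromosome 7, 78175959 to 78738012), was at 109.9, 114, 109.8 and 104 CPM at 24 h and 149, 145, 170.1 and 132 CPM at 72 h. Ntrk3 rose by 0.44 on the log2 scale (SE 0.09, adjusted p = 0.00817). It passed in all 8 fits that left out a library. Mrgprd, a receptor of non-peptidergic nociceptors (ENSMUSG00000051207, chromosome 7, 145314835 to 145324086), was at 110.0, 137, 148 and 137 CPM at 24 h and 179, 177, 172 and 161 CPM at 72 h. Mrgprd rose by 0.37 on the log2 scale (SE 0.09, adjusted p = 0.0293). Mrgprd passed only without 24 h replicates 2 or 3 or 72 h replicate 4 (adjusted p = 0.052 to 0.0816 in the other fits). Pvalb, the calcium buffer of proprioceptors (ENSMUSG00000005716, chromosome 15, 78191114 to 78206400), was at 96.5, 116, 104 and 132 CPM at 24 h and 53.4, 48.8, 72 and 85.7 CPM at 72 h. Pvalb fell by 0.79 on the log2 scale (SE 0.17, adjusted p = 0.018). Pvalb did not pass without 24 h replicate 4 or 72 h replicates 1 or 2 (adjusted p = 0.0578 to 0.0735). Pvalb and Ntrk3, both known in proprioceptors, thus moved in opposite directions. The glutamate transporter Slc17a7 fell as well (-0.35, SE 0.09), and it passed only without 24 h replicate 1 or 72 h replicates 3 or 4 (adjusted p = 0.0801 to 0.145 in the other fits). Of 42 identity genes 2 rose and 2 fell (9.52% called, against 2.34% of all genes), and the median was 0.05.

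Among 44 ion channel genes, 3 rose and 1 fell (9.09% called, against 2.34% of all genes), with a median of 0.12. Cacna1b, the pore of the N-type calcium channel (ENSMUSG00000004113, chromosome 2, 24603887 to 24763152), was at 101, 99.3, 112 and 111 CPM at 24 h and 149, 136, 130.2 and 124 CPM at 72 h. Cacna1b rose by 0.35 on the log2 scale (SE 0.06, adjusted p = 0.00278). It passed in all 8 fits that left out a library. The potassium channel genes Kcnd3 (0.25, SE 0.06) and Kcnt1 (0.29, SE 0.08) rose as well. Kcnd3 passed only without 24 h replicate 3 or 72 h replicate 4 (adjusted p = 0.0526 to 0.0906 in the other fits). Kcnt1 passed only without 24 h replicate 4 or 72 h replicate 4 (adjusted p = 0.0563 to 0.118 in the other fits). Each of these 3 differences was under 0.4 on the log2 scale.

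Of 41 axon injury genes 2 rose (4.88% called, against 2.34% of all genes). The small GTPase Rrad was at 0.909, 1.11, 1.11 and 1.32 CPM at 24 h and 2.91, 2.24, 1.81 and 3.99 CPM at 72 h. Rrad rose by 1.3 on the log2 scale (SE 0.29, adjusted p = 0.0175). Rrad did not pass without 72 h replicates 1 or 4 (adjusted p = 0.0512 and 0.0654). Cckbr, a cholecystokinin receptor known to appear after nerve injury, had 0, 2, 0 and 0 counts at 24 h and 5, 20, 5 and 10 at 72 h. Summed over libraries these are 2 against 40 counts, a ratio of rates of 20.3 (exact Poisson 95% interval 5.26 to 173.2, counting error only), and it passed only without 72 h replicates 1 or 4 (adjusted p = 0.0507 to 0.131 in the other fits). The neuropeptide receptor Qrfpr, in no list, had 2, 0, 0 and 0 counts at 24 h and 8, 1, 5 and 21 at 72 h, a ratio of 17.7 (interval 4.56 to 152.2), and it passed only without 24 h replicate 1 or 72 h replicate 2 (adjusted p = 0.0678 to 0.124 in the other fits). Other axotomy markers did not pass: Gap43, a growth cone protein, was at 166, 181, 175 and 180.4 CPM at 24 h and 238, 226, 186 and 201 CPM at 72 h (adjusted p = 0.105), the chaperone Hspb1 at 119, 108, 112 and 93.2 CPM at 24 h and 96.2, 89.97, 81 and 84.8 CPM at 72 h (adjusted p = 0.0709), and Sprr1a had 11, 21, 0 and 2 counts at 24 h and 8, 29, 5 and 37 at 72 h (adjusted p = 0.458). In this list 27 of 41 genes had a positive log2 fold change, with a median of 0.13.

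The largest falls were mostly small in level. They were chosen among called genes without overlap between the times. Rasd2, a small GTPase, was at 6.3, 7.44, 4.84 and 6.21 CPM at 24 h and 2.47, 2.77, 3.79 and 4.35 CPM at 72 h. Rasd2 fell by 0.89 on the log2 scale (SE 0.21, adjusted p = 0.0236). The kinase gene Cdkl4 was at 8.77, 7.47, 8.28 and 7.74 CPM at 24 h and 4.12, 3.35, 4.91 and 5.18 CPM at 72 h. Cdkl4 fell by 0.88 on the log2 scale (SE 0.19, adjusted p = 0.0146). Clec2l, a C-type lectin-like gene, was at 203, 231, 209 and 226 CPM at 24 h and 115, 109.7, 149.8 and 172 CPM at 72 h. Clec2l fell by 0.67 on the log2 scale (SE 0.14, adjusted p = 0.011). In all 3 genes 72 h replicates 1 and 2 lay below replicates 3 and 4. Sh3bgr was at 36.8, 31.6, 30.7 and 36.6 CPM at 24 h and 17.7, 19.2, 24.7 and 25.2 CPM at 72 h. Sh3bgr fell by 0.64 on the log2 scale (SE 0.11, adjusted p = 0.00382). The homeobox factor Shox2 was at 50.9, 59.5, 49 and 55.7 CPM at 24 h and 27.3, 30.8, 41.9 and 42.1 CPM at 72 h. Shox2 fell by 0.60 on the log2 scale (SE 0.12, adjusted p = 0.012). Clec2l and Sh3bgr passed in all 8 fits that left out a library. Rasd2 did not pass without 24 h replicate 2 or 72 h replicates 1 or 2 (adjusted p = 0.0662 to 0.0854). Cdkl4 did not pass without 72 h replicates 1 or 2 (adjusted p = 0.052 and 0.0623). Shox2 did not pass without 72 h replicate 2 (adjusted p = 0.0512).

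The remaining large falls passed in fewer of the fits that left out a library. The protease inhibitor gene Serpina3c was at 6.2, 6.75, 6.96 and 6.23 CPM at 24 h and 2.77, 2.56, 3.79 and 5.7 CPM at 72 h (-0.81, SE 0.21), and it passed only without 72 h replicate 4 (adjusted p = 0.056 to 0.138 in the other fits). The mitochondrial malic enzyme Me3 was at 6.47, 8.78, 8.79 and 6.56 CPM at 24 h and 3.66, 4.07, 4.81 and 6.11 CPM at 72 h (-0.71, SE 0.17), and it passed only without 24 h replicates 1 or 4 or 72 h replicate 4 (adjusted p = 0.0685 to 0.1 in the other fits). In both, 72 h replicate 4 nearly reached the 24 h range. Rwdd2a was at 8.54, 8.39, 8.62 and 6.06 CPM at 24 h and 4.61, 5.4, 5.42 and 5.08 CPM at 72 h (-0.63, SE 0.14), and it did not pass without 24 h replicates 1 or 3 or 72 h replicates 1 or 3 (adjusted p = 0.0512 to 0.0743). The olfactory receptor gene Olfr920 was at 9.79, 5.19, 5.25 and 4.37 CPM at 24 h and 2.35, 3.67, 3.51 and 3.54 CPM at 72 h (-0.91, SE 0.24), and it passed only without 24 h replicates 2 or 4 (adjusted p = 0.056 to 0.145 in the other fits). For Olfr920, the fold change was -0.59 without 24 h replicate 1, which held the highest value.

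Of 20 satellite glia genes, 0 rose and 1 fell (5% called, against 2.34% of all genes). The satellite glia level was lowest in 72 h replicate 4 (6.21, 6.22, 6.19 and 6.37 at 24 h and 6.37, 6.28, 6.27 and 5.95 at 72 h). S100b was at 821, 937, 832 and 819 CPM at 24 h and 739, 692, 700.0 and 804 CPM at 72 h, and the sterol enzyme Hmgcs1 at 1024, 1051, 1047 and 1068 CPM at 24 h and 1219, 1287, 1168 and 1095 CPM at 72 h (adjusted p = 0.0689 and 0.0565). Myelinating (16 genes) and non-myelinating (7 genes) Schwann cell lists had 0 called. The myelin gene Mal was at 69.2, 62.8, 67 and 91.4 CPM at 24 h and 88.8, 94.5, 78.8 and 85.2 CPM at 72 h (adjusted p = 0.196).

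Of the markers of tissue that a dissection could carry over, 2 were called. Of 8 spinal cord genes tested 1 was lower, Aldoc (-0.48, SE 0.06), a glycolytic enzyme at a mean log2 CPM of 7.75 in the naive libraries, while 5 of the 17 listed genes had 0 counts in all naive libraries. Of 9 skeletal muscle genes 1 was lower, and that was Pvalb, the proprioceptor gene above. Adipocyte (3 genes) and bone and cartilage (8 genes) lists had 0 called. The Y-linked gene Ddx3y was at 114 to 142 CPM in all 8 libraries, and Xist had 1 count in 1 library and 0 in the other seven.

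Several of the largest rises were long non-coding or very long transcripts that varied among the 72 h libraries. Malat1, an abundant nuclear RNA (ENSMUSG00000092341, chromosome 19, 5795690 to 5802672), was at 1287, 1229, 1074 and 1102 CPM at 24 h and 1509, 1899, 3721 and 2599 CPM at 72 h. Malat1 rose by 1.05 on the log2 scale (SE 0.20, adjusted p = 0.00565). Meg3, an imprinted non-coding RNA (ENSMUSG00000021268, chromosome 12, 109541001 to 109571726), was at 153, 167, 139 and 135 CPM at 24 h and 188, 225, 442 and 332 CPM at 72 h. Meg3 rose by 1.00 on the log2 scale (SE 0.19, adjusted p = 0.00744). Kcnq1ot1 (ENSMUSG00000101609, chromosome 7, 143203458 to 143296549), a non-coding RNA of the strand opposite to Kcnq1, was at 8.73, 8.16, 9.71 and 8.26 CPM at 24 h and 14.5, 14.9, 27.4 and 21.6 CPM at 72 h (log2 fold change 1.17, SE 0.15, adjusted p = 0.000192); the strand setting of the counting is not given in the sources used here, so its reads and those of Kcnq1 cannot be told apart. In each, 72 h replicate 3 was the highest library, followed by replicate 4. All 4 libraries of 72 h were above the 24 h range, which the choice of the largest rises required. Without 72 h replicate 3 the log2 fold changes were 0.77, 0.74 and 0.97, and all 3 genes passed in all 8 fits that left out a library. With both 72 h replicates 3 and 4 left out, Malat1 and Meg3 did not pass (0.54 and 0.48, adjusted p = 0.11 and 0.168 by edgeR), while Kcnq1ot1 did. C78859 was at 4.65, 4.73, 5.18 and 6.23 CPM at 24 h and 7.25, 10.2, 18.1 and 12.8 CPM at 72 h (1.22, SE 0.23) and the collagen gene Col24a1 at 4.71, 4.84, 5.03 and 5.47 CPM at 24 h and 6.76, 7.999, 15.2 and 11.2 CPM at 72 h (1.04, SE 0.21). C78859 passed in all 8 fits without 1 library, and Col24a1 did not pass without 72 h replicate 3 (adjusted p = 0.0559). With both 72 h replicates 3 and 4 left out, neither passed (0.76 and 0.56, adjusted p = 0.131 and 0.231).

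The share of all counts in long non-coding genes followed the same libraries: 0.659%, 0.656%, 0.633% and 0.639% at 24 h and 0.670%, 0.720%, 1.00% and 0.844% at 72 h. The injured libraries had 0.582% to 0.651% at 24 h and 0.740% to 0.887% at 72 h. This share includes Malat1, at 1074 to 1287 CPM in the naive libraries at 24 h and 1509 to 3721 CPM at 72 h. The share without Malat1 was not computed. Of 1437 long non-coding genes tested, 14 were called higher (0.974%, against 1.61% of all genes) and 3 lower (0.209%, against 0.731%), and their median log2 fold change was -0.04. Calls were related to transcript length. With the genes cut by length into 4 nearly equal groups, the group with the longest transcripts (4468 bases or more) had 177 called higher and 16 lower, and in the group with the shortest (up to 1724 bases), 23 were called higher and 43 lower. The median log2 fold change went up over the 4 groups from -0.08 to -0.03, 0.01 and 0.06, while in the injured libraries it was -0.02, 0.02, 0.02 and 0.01. With the length and GC trend of each library removed, the calls were 42 higher and 12 lower in the shortest group and 103 and 80 in the longest. That setting called 449 genes, of which 315 were among the 448. The splits by length are a property of these libraries, and what sets them was not tested.

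**Figure D3:**
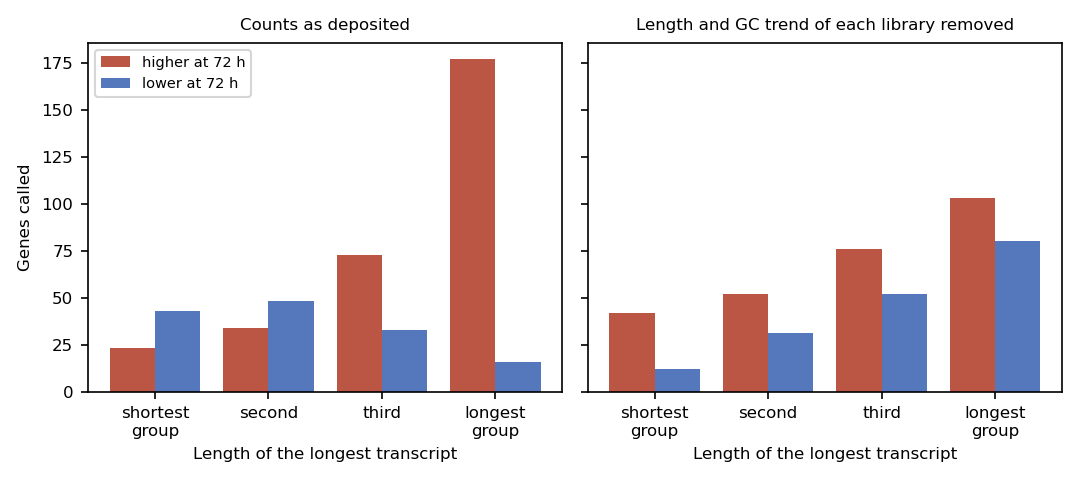
Bars count the genes called higher (red) and lower (blue) at 72 h in each of 4 nearly equal groups of genes by length of the longest annotated transcript, on counts as deposited (left) and with each library's length and GC trend removed (right). On the deposited counts the longest group has 177 rises and 16 falls; with the trend removed it has 103 and 80.

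The number of called genes was below 448 with any naive library left out, and it varied with the library. Each such fit has 1 library fewer, and loss of power was not separated from the part of the library itself. The number of calls was 389, 342, 265 and 285 with 24 h replicate 1, 2, 3 or 4 left out, and 188, 200, 170 and 391 with 72 h replicate 1, 2, 3 or 4 left out. The 140 falls became 35 without 72 h replicate 1, 25 without 72 h replicate 2 and 41 without 72 h replicate 3. The 308 rises became 153, 175 and 129 without these libraries. None of the 448 genes changed sign in any of these fits. Of the 448, 111 passed in all 8 such fits (97 higher and 14 lower) and 13 in none of them.

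The library left out could also be set against the genes called without it. Among genes called without 72 h replicate 3, that library lay nearer to the mean of the other 72 h libraries than to that of the 24 h libraries in 90.5%. The share was 80.7% for 72 h replicate 1, 86.4% for replicate 2 and 64.1% for replicate 4. For the 24 h libraries it was 67.2%, 67.9%, 80.3% and 76.1%. The left-out library was thus on the side of its own group for most called genes in each of the 8 cases, least often for 72 h replicate 4 and for 24 h replicates 1 and 2.

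**Figure D4:**
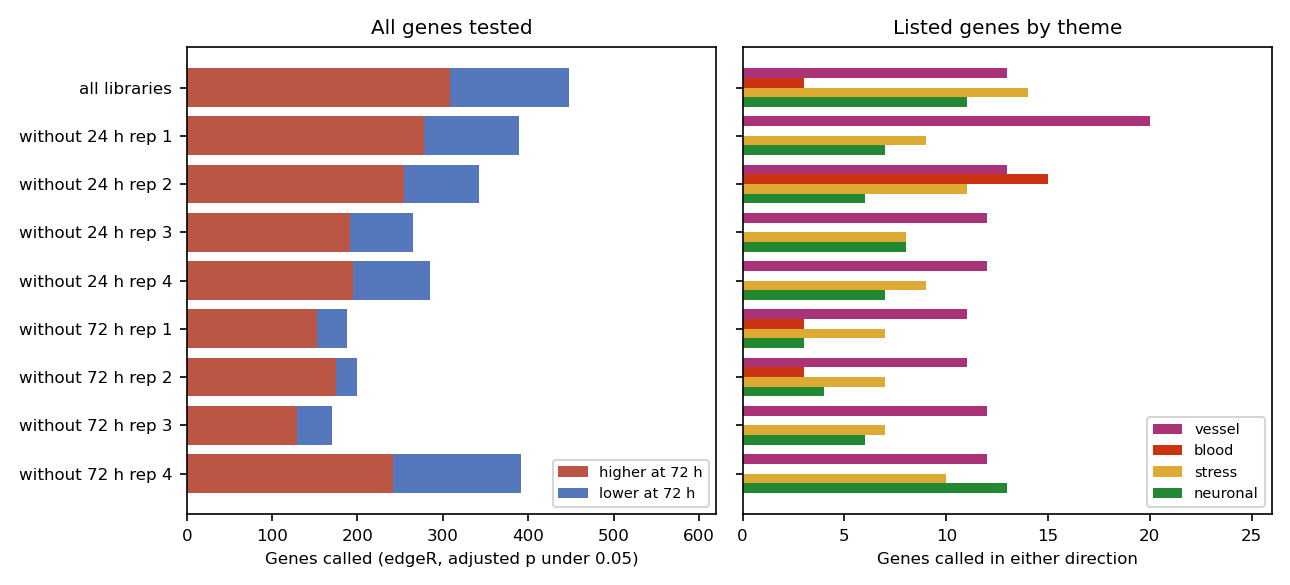
Bars give the number of genes called by edgeR at an adjusted p under 0.05 with all libraries (top) and with each naive library left out, over all genes by direction (left) and over the listed genes of 4 themes (right). Leaving out 72 h replicate 1, 2 or 3 gives the lowest totals (188, 200 and 170), vessel calls stay between 11 and 20, and blood and proliferation calls (labeled blood) range from 0 to 15.

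The injured libraries, which share no library with the naive ones but come from the same mice, gave the same time difference a second measurement in ganglia that also responded to the crush. In them, the change with time and the course of the injury response cannot be told apart. There 3001 genes (15.7%) were called between 72 h and 24 h, 1497 (7.82%) higher and 1504 (7.85%) lower. Of the 448 genes called in the naive comparison, 365 (81.5%) had the same sign in the injured libraries, against 58.3% of all genes tested, and 186 (41.5%) were also called with the same sign. Only 21 were called with the opposite sign.

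Several vessel and non-coding genes rose in both. Myh11 rose in the injured libraries too (1.26, SE 0.17, adjusted p = 1.37e-05), and so did Acta2 (1.11, SE 0.15, adjusted p = 2e-05), Myl9 (0.86, SE 0.13, adjusted p = 7.48e-05) and Abcb1a (0.56, SE 0.10, adjusted p = 0.000409). The mural list had 7 rises and 0 falls there with a median of 0.63, and the endothelial list 5 rises and 1 fall with a median of 0.26. Hspa1a (0.65, SE 0.18, adjusted p = 0.0129), Malat1 (1.24, SE 0.20, adjusted p = 9.4e-05), Meg3 (1.34, SE 0.20, adjusted p = 3.52e-05), Kcnq1ot1 (1.28, SE 0.15, adjusted p = 1.69e-06), Clec2l (-1.16, SE 0.14, adjusted p = 2.21e-06) and Pvalb (-1.05, SE 0.17, adjusted p = 0.000161) also moved the same way. The injured erythroid and neutrophil medians were 0.31 and 0.22, with 0 and 1 genes called higher.

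Other genes moved differently in the injured ganglia, where the difference between the time differences was itself called for 95 of the 448 (1207 of all genes, 6.30%). The 448 were chosen by naive values that also enter this difference, so a higher share among them follows in part from the choice. Each mouse gave both kinds of ganglia, but the labels do not say which libraries share a mouse, so this test treats the 16 libraries as independent. Rsad2 rose in naive ganglia (1.08, SE 0.16) and did not pass in injured ones (-0.30, SE 0.16, adjusted p = 0.227). The difference between them was called (1.38, SE 0.23, adjusted p = 0.000441). In the injured libraries it was at 20.3 to 42.9 CPM at 24 h and 24.3 to 30.7 CPM at 72 h, so the naive 24 h libraries, at 12 to 17.6 CPM, were the lowest of the series. The interferon list had a median of -0.37 with 0 rises and 13 falls in the injured libraries, against 0.24 in the naive ones. Ppp1r15a fell in injured ganglia (-0.26, SE 0.07, adjusted p = 0.0165) and differed between them by 0.66 (SE 0.11, adjusted p = 0.000342). Ntrk3 fell there too (-0.29, SE 0.09, adjusted p = 0.0252) and differed by 0.73 (SE 0.12, adjusted p = 0.000559). Mthfd2 fell in naive and rose in injured ganglia (0.35, SE 0.08, adjusted p = 0.00374), with a difference of -0.71 (SE 0.11, adjusted p = 0.000349). For Gap43, which did not pass in the naive comparison, the difference was called as well (-1.14, SE 0.13, adjusted p = 5.44e-06).

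**Figure D5:**
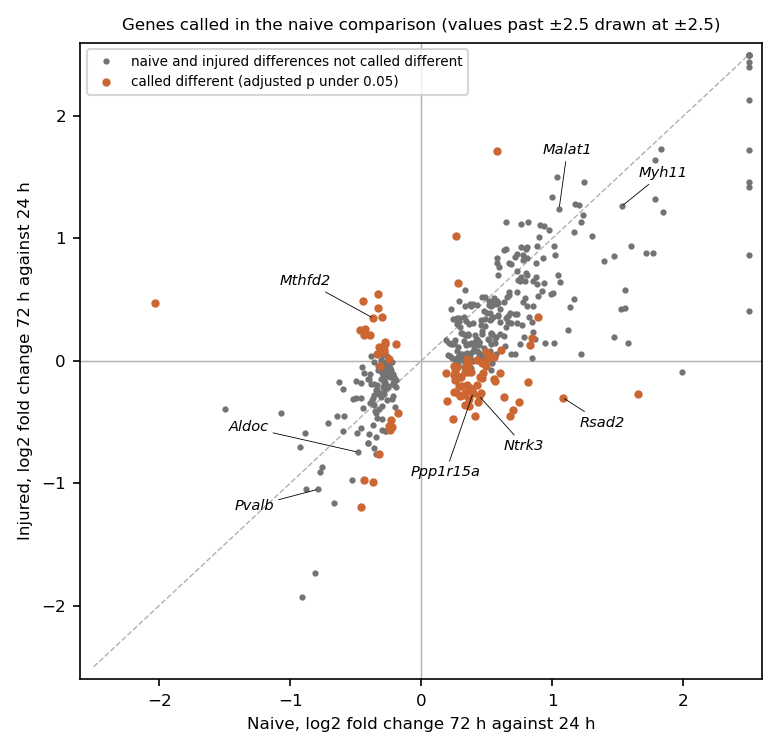
Each point is 1 of the 448 genes called in the naive comparison, with its log2 fold change of 72 h against 24 h in naive (x) and injured (y) libraries; the dashed line marks equal values and points in orange have a called difference between them. Most points lie in the quadrants of equal sign (365 of 448), with Rsad2, Ppp1r15a, Ntrk3 and Mthfd2 among the exceptions.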

How the data were processed

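The deposited gene table holds counts, whole read counts per Ensembl gene that the authors did not scale. Per the submitters' processing notes, bcl2fastq 2.17, STAR and HTSeq were used with GRCm38 and mm10; strand setting, annotation release and treatment of reads with several positions are not given in the sources used here. The 72 h columns have names without a time; they were matched to 72 h by elimination. Of 48795 genes, 48349 matched a symbol. A second deposited table, of repeat windows, was not used here.

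All 16 libraries were fitted with edgeR 4.0.16 (R 4.3.3; TMM; filterByExpr with minimum count 10 and total 15; quasi-likelihood; group as the only term), and p-values were adjusted by Benjamini-Hochberg over the 19151 genes that remained, with a threshold of 0.05. SE is the absolute log2 fold change over the square root of F. CPM use TMM-scaled totals; log2 CPM use a prior count of 2, and a list level is the mean log2 CPM of its tested members. "Without overlap" means that all 4 values of one group exceed all 4 of the other. Intervals cover counting error alone, because the reads carry no molecular identifiers and are not independent. Within groups no pair of libraries was a duplicate (the smallest chi-square was 7.94 per degree of freedom). The script was tested on simulated data. Of genes simulated to change by 0.5 on the log2 scale, 38.4% were called with the right sign. For a change of 1 it was 69.5%, and 2 unchanged genes were called. A gene that was not called is thus not shown to be unchanged. Alternatives were DESeq2 1.42.0, limma 3.58.1 (voom with sample weights), other scalings and filters, the naive libraries alone, a replicate block, each naive library left out and, added after seeing the data, 72 h replicates 3 and 4 both left out, removal of the length and GC trend, and a block of the number within each time for the naive and injured difference.

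Named genes were the 10 largest rises and 10 largest falls among called genes with an assigned name, a mean log2 CPM of at least 2 and no overlap, the 3 members with the smallest p of each described list, the 3 called genes moved most by 1 library, and label checks. Some genes that the rule or a list count includes are not reported here by name. The comparison, the 29 gene lists and the rule were chosen with earlier results of these data known; counts per list describe and do not test it. Genes and lengths were annotated with GENCODE M21 (GRCm38), and promoters came from RefSeq (GRCm38.p6).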

Additional observations from a re-analysis of the deposited data

Results flagged for a closer look

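In groups of 4 libraries, 238 sets of values were screened for a library far from the other three (gap over range above Dixon's 95% critical value), and 16 (6.72%) were flagged, where chance flags about 1 in 20. Genes with a low library were the stress genes Hspa1a (gap over range 0.978) and Hspa1b (0.841) in 72 h replicate 4. In 24 h replicate 4 they were the stress gene Ppp1r15a (0.957) and Rwdd2a (0.922). Low as well were Olfr920 in 72 h replicate 1 (0.9), and the interferon gene Trim30a (0.856) and the red cell gene Rhag (0.883) in 24 h replicate 3. The last were the clock gene Hlf in 24 h replicate 1 (0.933) and the glutathione transferase Gsta4 in 24 h replicate 2 (0.863). High libraries were 24 h replicate 2 for S100b (0.883) and Cckbr (1), and 24 h replicate 1 for Qrfpr (1); the last 2 rest on 2 counts each. Of list levels, oxidative stress was low in 24 h replicate 1 (0.971), satellite glia high in 24 h replicate 4 (0.857), and myelinating Schwann cells (0.89) and adipocytes (0.928) low in 72 h replicate 2.

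For 9 of the 51 named genes called between the naive groups, the naive time difference differed from the injured one by edgeR's test of the difference. These genes were chosen by naive values that also enter that test. Rsad2 differed by 1.38 on the log2 scale (adjusted p = 0.000441). Ntrk3 differed by 0.729 (0.000559), Ppp1r15a by 0.66 (0.000342), Vsnl1 by 0.622 (0.000917) and Mrgprd by 0.591 (0.00577). Smaller differences were those of Cacna1b, 0.332 (0.0184), Kcnd3, 0.296 (0.0371), and Bnip3, 0.255 (0.0445). Mthfd2 differed the other way, by -0.714 (0.000349).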

How the results depend on the processing

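The 448 calls were 436 with RLE scaling, 449 with upper-quartile scaling and 545 on the 8 naive libraries alone. They were 932 by DESeq2 (605 higher, 327 lower), 695 by limma voom with sample weights (271 lower), 1168 with no filter on low counts (783 higher, 385 lower) and 254 with both 72 h replicates 3 and 4 left out (166 higher, 88 lower). Vessel calls were 31 with no filter. Blood calls, which include proliferation genes, were 5 by DESeq2 and by voom, 36 with no filter, and 1 with both libraries left out. Stress calls were 22 with no filter and 8 with both left out, and neuronal calls 23 by DESeq2 and 37 with no filter. Over fits without 1 naive library, the ranges were 170 to 391 calls, 129 to 278 higher, 25 to 149 lower, 11 to 20 vessel, 0 to 15 blood, 7 to 11 stress and 3 to 13 neuronal genes. With the replicate number as a block on the naive libraries, 206 genes were called (153 higher, 53 lower), with 1 blood, 8 stress and 7 neuronal genes. The numbers share only a number, since the mice differ: deviations of same-numbered libraries correlated at 0.008, -0.118, -0.073 and -0.021. Same-numbered naive and injured libraries, which may share a mouse, correlated at 0.047 to 0.101 in all 8 pairs. With the number within each time as a block, added after seeing the data, the naive and injured differences were called different for 1692 genes in place of 1207 (1179 shared), and for 133 in place of 95 of the 448. Of the 51 named called genes, 18 passed under every alternative and none changed sign under any; the cause of these changes was not tested. The naive differences cannot be told apart from differences between the mice or the handling of the 2 times, and genes at a few counts, such as Cckbr, Qrfpr and Ppbp, are limited by depth.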

Other observations

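The spread between libraries was larger at 24 h than at 72 h. The SD of log2 CPM over the 4 naive libraries was larger at 24 h for 12493 of 19151 genes (65.2%). Its median over genes was 0.187 at 24 h and 0.144 at 72 h in naive libraries, and 0.199 and 0.165 in injured ones. Mitochondrial genes took 1.55% to 1.99% of naive counts at 24 h and 2.02% to 2.51% at 72 h, without overlap, while the injured libraries overlapped (1.70% to 2.47% and 1.55% to 1.97%).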
